A study of Mus musculus with 7 samples.

Results

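The comparison described here set late against early recovery from a single long run in the mouse plantaris, a mostly fast-twitch muscle of the calf. It rested on 4 of the 7 arrays of the series, chosen by the time named in their titles. The early side held P3h and P6h, muscle taken 3 and 6 h after 12 h of running, and the late side P12h and P24h, taken 12 and 24 h after the same run. Each array compared, with 2 dyes, the pooled RNA of 3 to 5 running mice (Cy5) with the pooled RNA of 8 untrained mice (Cy3). The control pool and the dyes were therefore common to both sides, and an effect of either that was equal on every array cancels in a difference. Errors of a single array do not cancel. The labels give no strain, age or sex, and no time of day. Each time had 1 array and 1 pool, so the 2 arrays of a side are different times and not replicates of a condition, and p-values measure the spread between times as well as the error.

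Of 16273 probes, 9102 (55.9%) had a usable ratio on all 4 arrays and were kept. A value within 1e-12 of 0 was taken as no usable ratio; the largest size left out was 9.61e-16 and the smallest kept 1.01e-06. Of the 7171 probes left out, 6779 were at 0 on P6h, 4964 on P24h and 2187 on all 4 arrays. P6h was thus the array that decided most of the losses, with 1970 probes at 0 on P6h alone against 261 on P24h alone. Among 71 probes at 0 on both early arrays with a ratio on both late ones, 0 reached 1 in size on both late arrays. The reverse set held 17 probes, of which 0 reached 1 in size on both early arrays. Neither set covers probes at 0 on a single array of a side, such as the 1970 at 0 on P6h alone.

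Skeletal muscle answers a long bout of running with a transient programme. Genes of stress and signalling respond first, genes of fuel use follow over the next hours, and most transcripts drift back toward the resting level within a day, while repair and the immune response can continue longer. A comparison of late with early recovery asks which transcripts had moved back, which stayed away from the resting level, and which appeared late.

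All values are log2 ratios, and a difference is the mean of P12h and P24h minus the mean of P3h and P6h. The direction of the ratio is not given in the sources used here. Values above 0 are read as more RNA after running, which is likely but not settled, since the running pool was labelled red and a red-to-green ratio is customary. The array titles name the control before the running pool, and they state no direction. If it ran the other way, every "higher" and "lower" below would be exchanged and the sizes would stand. The gene names are those that the platform annotation gives to each probe number. Over 179 pairs of probes assigned to the same accession, the log2 ratios correlated across pairs at r = -0.0359 (P3h), -0.0627 (P6h), -0.0264 (P12h) and 0.103 (P24h). The late minus early differences of these pairs correlated at r = 0.0274, but differences no wider than the spread within the sides say little about the names. The log2 ratios of 17 kept spots of the Gapdh accession had an SD of 0.31 on P3h and 0.22 on P12h, below the 0.42 and 0.36 of all probes, and of 0.51 on P6h and 0.65 on P24h, above the 0.47 and 0.52 of all probes. A name is used here as a label of a probe, and what is said of a gene's role is what that name stands for, not an identification of the RNA. A ratio to a control pool gives no level, so the labelled tissue could not be checked from markers; of 12 probes with names of 8 skeletal muscle markers, 8 were kept and 1 was at 0 on all 4 arrays.

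No probe passed the test of late against early recovery after adjustment over all probes. With limma and Benjamini-Hochberg adjustment, 0 of 9102 probes (0%) had an adjusted p under 0.05, and the smallest adjusted p was 0.195. At an unadjusted p under 0.05 there were 274 probes (3.01%), 105 higher late and 169 lower. After scaling, which gave the arrays a common median size of the log2 ratio, 0 probes passed again, the smallest adjusted p was 0.995, and 280 probes (3.08%) had an unadjusted p under 0.05. The differences were small for most probes: 93.5% were under 0.5 in size, the median was 0.02, and the 5th and 95th percentiles were -0.49 and 0.38. For a typical probe the 95% interval of the difference reached 0.50 to either side (median over probes). That interval is for a single probe and is not adjusted over all probes, so an absence of calls sets no such bound. Even the difference farthest from 0, at -2.12, was not called. With 2 arrays against 2, an exact permutation test of a single probe cannot give a p below 0.333 (two-sided).

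The division into early and late was not the widest one among the 4 arrays. Over the 9102 probes the differences had an SD of 0.276, and the spread inside the sides alone would give 0.281. After scaling the corresponding values were 0.253 and 0.269. P12h lay closer to the early arrays than to P24h: the SD of its difference was 0.276 from P3h, 0.315 from P6h and 0.431 from P24h. Scaling left that order in place, at 0.312, 0.330 and 0.397. P24h stood apart from each of the other arrays, with an SD of 0.501 from P3h and 0.440 from P6h (0.435 and 0.387 after scaling). Its correlation across probes was 0.450 with P3h, 0.614 with P6h and 0.577 with P12h, while the other 3 pairs had r from 0.679 to 0.755. These correlations share the control pool and are given as a description.

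**Figure D1:**
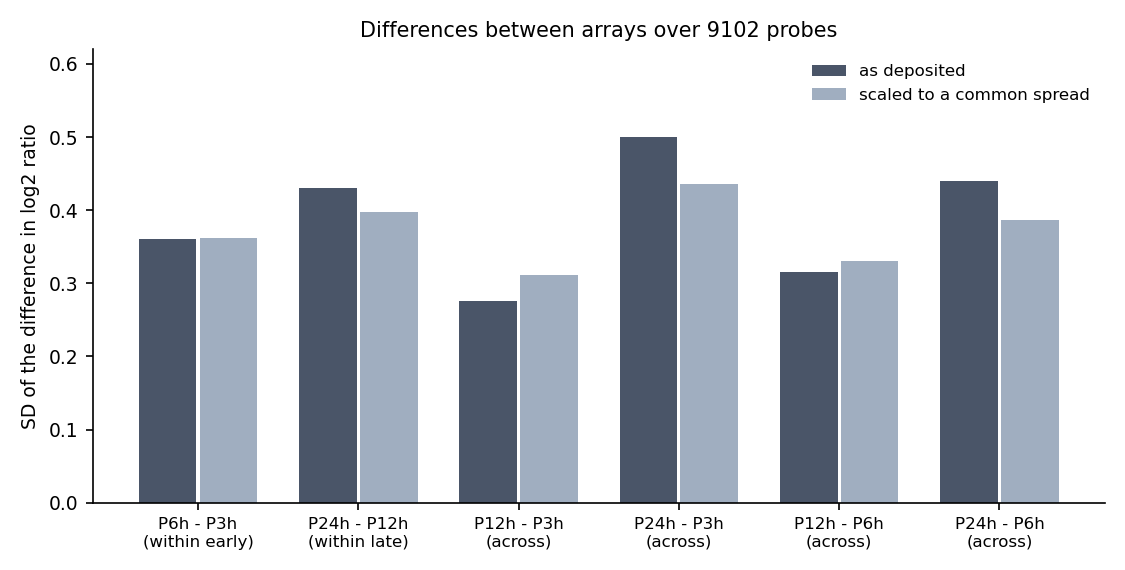
Standard deviation, over 9102 probes, of the difference in log2 ratio for each pair of the 4 arrays; dark bars show the deposited values and light bars the values scaled to a common spread. The 3 pairs with P24h have the tallest bars of the deposited values, from 0.431 to 0.501, and P12h minus P3h has the shortest, at 0.276, although it crosses the sides.

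The widths of the arrays differed as well. Early, the median size of a log2 ratio was 0.21 (P3h) and 0.22 (P6h), and late it was 0.17 (P12h) and 0.28 (P24h), so the late side held both the narrowest and the widest array. On P3h 204 probes were at or above 1 and 40 at or below -1. On P6h the counts were 152 and 165, on P12h 102 and 67, and on P24h 128 and 336. Ratios below -1 were thus most frequent at 24 h. After scaling P24h had 55 and 137, and P6h the most probes at or below -1, with 158, so that this order depends on the width of the arrays.

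A difference that belonged to late against early recovery would appear in pairs of arrays that share no running pool. Across the 9102 probes P12h minus P3h correlated with P24h minus P6h at r = 0.143 (rho = 0.131). With the early arrays exchanged, P12h minus P6h correlated with P24h minus P3h at r = -0.143 (rho = -0.155). The differences inside the sides, P24h minus P12h and P6h minus P3h, correlated more strongly, at r = 0.258. Given the SDs of the differences, this value is fixed by the other correlations, so it is no separate yardstick. After scaling the 3 values were 0.0401, -0.146 and 0.180. The level of the control pool cancels inside each difference, errors of a single array do not, and probes are not independent replicates.

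A probe was taken to have its sides apart when both late values lay above, or both below, the 2 early values. This held for 1423 probes higher late (15.6%) and 1350 lower late (14.8%). After scaling the counts were 1394 (15.3%) and 1256 (13.8%). Few of these gaps were large. With a difference of at least 1, 8 probes (0.0879%) were higher late and 38 (0.417%) lower late, and after scaling 7 (0.0769%) and 36 (0.396%). All 7 of the higher and 31 of the 36 lower were among those found in the deposited values. Quantile normalization gave 17 higher and 27 lower. Without P24h there were 16 higher and 24 lower, without P12h 32 and 263, without P6h 18 and 122, and without P3h 28 and 40. With 1 array left out, 1 side is a single value, which lies apart more easily. These counts are therefore not comparable with the 8 and 38. Among them the excess of lower probes was largest where P24h stood alone for the late side.

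**Figure D2:**
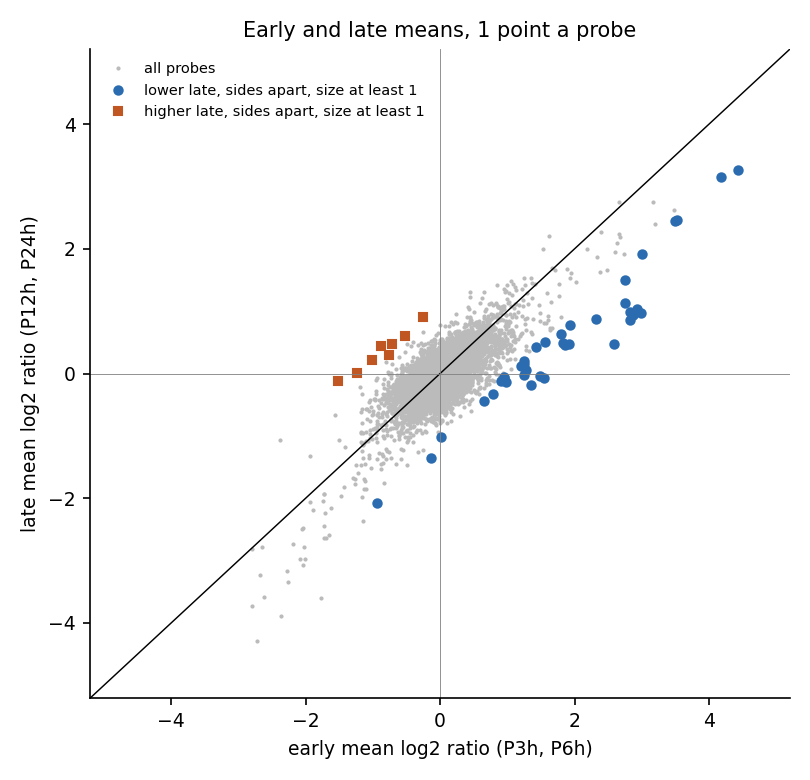
Mean log2 ratio on P3h and P6h (horizontal) against the mean on P12h and P24h (vertical), with 1 grey point for each of 9102 probes and the line of equality. Blue circles mark the 38 probes with sides apart that were lower late by at least 1, nearly all to the right of 0, and orange squares the 8 that were higher late.

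The 38 lower probes were mostly probes that stood above the control pool early and lay nearer to it late. They were chosen on the recovery arrays, so the fall was given by the choice and the high early values follow from it in part. Some had nearly equal values on every array, so the counts may not be of separate members. Both early values were above 0 for 35 of the 38 and at least 1 for 27. Early, their median log2 ratio was 1.82 (P3h) and 1.60 (P6h), and late it was 0.84 (P12h) and 0.13 (P24h). P12h was above P24h for 33 of the 38, and 34 lay at least 1 below their early mean on P24h against 16 on P12h. On P24h 16 of them were at or below 0. The arrays that played no part in the choice had medians of 1.05 on R3h (right after 3 h of running), 1.45 on R12h (right after the 12 h run) and 0.15 on R4w (after 4 weeks of running). On R12h 29 of the 38 reached 1 and on R4w 0 did. These 3 arrays share the control pool with the others, so the values are set side by side and not compared.

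The difference farthest from 0 belonged to probe 1899, which has no gene name. Its log2 ratio was 2.56 and 2.61 early, in the order P3h and P6h, and 0.73 and 0.20 late, in the order P12h and P24h, which is the order of all values that follow. The difference was -2.12 ± 0.23 (SE, n = 2 arrays a side, limma adjusted p 0.195; 0.995 after scaling). The early values lay within 0.1 of each other and both late values far below them. With R3h and R12h added to the fit to share the spread, its adjusted p and that of the next probe were both 0.0531.

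Probe 11099 carries the name Mylpf, the regulatory light chain of myosin in fast fibres. It had 2.96 and 2.68 early and 1.04 and 0.68 late, a difference of -1.96 ± 0.22 (adjusted p 0.195 with limma). Probe 9539, named Eya1 after a transcriptional co-activator of fast-fibre genes, had almost the same course, with 3.03, 2.72, 1.19 and 0.69 and a difference of -1.94 ± 0.24 (adjusted p 0.261 with limma). Probe 9661, named Casp8 after an initiator caspase, had 3.07, 2.57, 1.28 and 0.69 and a difference of -1.83 ± 0.28 (adjusted p 0.515 with limma). For all 3 the late values were well below the early ones and still above 0. On R3h the 3 probes stood at 3.27, 3.33 and 3.49, and on R4w at -0.52, -0.52 and -0.49. Over all 7 arrays the Mylpf and Eya1 probes differed by 0.0657 (root mean square of the log2 differences), and the Casp8 probe differed from the Eya1 probe by 0.0940. Probe 507, with no name, was also high early, with 3.09, 2.41, 1.23 and 1.03 (difference -1.62 ± 0.26), as did probe 17458, named Pklr after a pyruvate kinase, with 2.65, 1.98, 0.67 and 1.08 (difference -1.44 ± 0.28).

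Other probes of the lower set changed mainly between 12 and 24 h. Probe 17262, named Gna11 after a G protein alpha subunit, had 3.32 and 2.67 early and 1.91 and 0.01 late. Its difference was -2.03 ± 0.57, or -1.80 after scaling. Probe 1020, named Cacna1e after a voltage-gated calcium channel, had 3.13, 2.73, 1.86 and 0.22 (difference -1.89 ± 0.49, or -1.70 after scaling). In both, P12h lay nearer to the early mean than to P24h. Probe 13391, named Agk, had 1.56, 1.54, 0.97 and -1.10, and probe 7255, named Ccdc81, 1.47, 1.51, 0.91 and -0.99. Their differences were -1.61 ± 0.58 and -1.53 ± 0.54. These 2 probes crossed 0 on P24h alone, and they differed from each other by 0.108 over the 7 arrays. Probe 338, named Ahrr after the repressor of the aryl hydrocarbon receptor, had 2.06, 1.77, 1.05 and -0.11 (difference -1.44 ± 0.37). None of these passed the threshold (adjusted p 0.970 with limma for each).

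Another course was a single step between 6 and 12 h. Probe 16371, named Rab6a after a Golgi GTPase, had 2.78 and 2.72 early and 1.52 and 1.47 late, a difference of -1.25 ± 0.18 (adjusted p 0.515 with limma). The values within each side lay within 0.1 of each other, and the late ones remained above 1. Probe 9133, named Il17ra after a receptor of interleukin 17, had 0.88 and 0.93 early and -0.06 and -0.17 late (difference -1.02 ± 0.19). Probe 15057, named Igsf23, had 1.25 and 1.26 early and 0.01 and 0.32 late (difference -1.09 ± 0.20). Both had an adjusted p of 0.797 with limma. Probe 15782, named Efna1 after an ephrin ligand, had 0.98 and 0.60 early and -0.30 and -0.35 late (difference -1.12 ± 0.21).

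**Figure D3:**
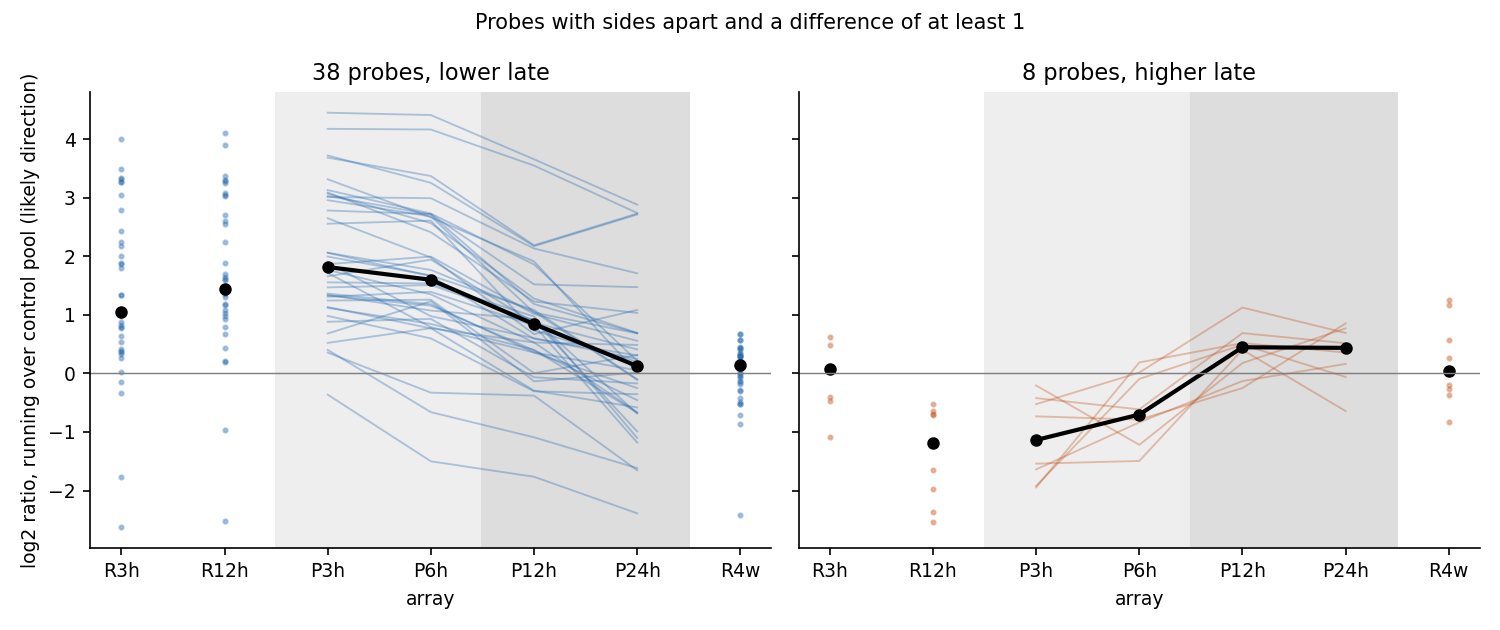
Log2 ratio by array for the 38 probes lower late (left) and the 8 higher late (right) by at least 1 with sides apart; each thin line is a probe across the 4 recovery arrays, small points are R3h, R12h and R4w, and black marks are medians. The median of the left panel goes from 1.82 on P3h to 0.13 on P24h, and that of the right panel from -1.14 to 0.44, with the early arrays on the light and the late arrays on the dark background.

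The 8 probes higher late stood mostly below the control pool early. They too were chosen on the recovery arrays, so the rise was given by the choice and the low early values follow from it in part. Both early values were below 0 for 6 of the 8. The median of the 8 was -1.14 (P3h) and -0.70 (P6h) early and 0.45 (P12h) and 0.44 (P24h) late. On R12h the median was -1.18, and 4 of the 8 were at or below -1; on R3h it was 0.08 and on R4w 0.04. Probe 5683, named Cep89 after a centrosomal protein, had -1.54 and -1.49 early and 0.40 and -0.64 late. Its difference of 1.40 ± 0.33 was the highest of the deposited values and became 1.55 after scaling (adjusted p 0.970 with limma, 0.995 after scaling). The early values were alike, while the late ones lay on either side of 0, more than 1 log2 unit apart. Probe 11691, named Tmco1 after a calcium channel of the endoplasmic reticulum, had -1.64, -0.84, -0.13 and 0.16 (difference 1.25 ± 0.29). It was at -2.38 on R12h and -0.40 on R3h, so that its values from R12h to P24h lay in order of time. The other 4 rested more on 1 array. Probes 14224 and 424, named Dpep1 and Cd151, had -1.95 and -1.92 on P3h but 0.19 and -0.09 on P6h, against late values of 0.52 and 0.36 and of 0.49 and -0.06. Probe 3672, named Meis2 after a homeobox factor, had -0.21 and -1.22 early and 0.18 and 0.77 late, and probe 5513, without a name, -0.73 and -0.79 early and -0.25 and 0.86 late.

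Probe 9077, named Otof after otoferlin, had -0.42 and -0.61 early and 0.69 and 0.52 late, a difference of 1.12 ± 0.20 (adjusted p 0.797 with limma). Probe 325, named Hunk after a protein kinase, had -0.52 and -0.46 early and 0.53 and 0.41 late (difference 0.96 ± 0.19). Probe 356, named Rnf130 after a RING finger protein, had -0.39 and -0.43 early and 0.60 and 0.41 late (difference 0.91 ± 0.19). Probe 2632, named Rinl, which like Otof belongs to the 8, had -0.52 and 0.02 early and 1.13 and 0.69 late (difference 1.16 ± 0.26). These 4 shared a course from near or below 0 early to above 0 late, were at or below -0.65 on R12h and stood at 0.85 to 1.26 on R4w. The remaining probes with a gap of at least 0.5 that the naming rule takes had smaller differences. Tmem258 (probe 978) had 0.57 and 0.32 early and 1.27 and 1.18 late, and Sik1 (probe 2916), the name of a salt-inducible kinase, 0.13 and 0.34 early and 0.87 and 1.04 late. Dnajc24 (probe 8442) had -0.78 and -0.90 early and -0.15 and -0.03 late, and Gpr83 (probe 9550) -0.72 and -0.76 early and -0.12 and 0.12 late. Their differences ran from 0.72 (Sik1) to 0.78 (Tmem258), each with an adjusted p of 0.970 with limma. In all, 18 probes higher late and 57 lower late had such a gap.

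Several probes with different names had nearly equal values on every array. This was looked at after the values were seen. Beside the Mylpf, Eya1 and Casp8 probes, those named Sertad1 (16089) and Hpca (16184) differed by 0.0630 over the 7 arrays (root mean square). On P3h, P6h, P12h and P24h the Sertad1 probe had 3.69, 3.37, 2.19 and 2.73 and the Hpca probe 3.72, 3.26, 2.17 and 2.72. The probes named Gdap10 (17465) and Cbfa2t3 (15905) differed by 0.0843, those named Psmb10 (134) and Dera (651) by 0.152, and those named Ube2j2 (12107) and Ccdc81 (7255) by 0.123. Whether such probes measured 1 RNA was not tested; they may not count as separate members.

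The probes were also sorted by their course over the 4 arrays. A probe high or low early only had a size of at least 1 with 1 sign on both early arrays and under 0.5 on both late ones. There were 5, all positive, and 2 of them after scaling. They were the probes named Gdap10, Cbfa2t3, Igsf23, Pmf1 and Hps1. The Pmf1 probe (13330) had 1.35, 1.20, 0.49 and 0.26, and the Hps1 probe (5085) 1.46, 1.10, 0.47 and 0.41. The Gdap10 probe had 1.33, 1.16, 0.40 and -0.46 and the Cbfa2t3 probe 1.36, 1.18, 0.36 and -0.25. On R12h 4 of the 5 reached 1. The opposite class, under 0.5 early and at least 1 in size late, held 0 of the kept probes, and 10 probes when zeros were kept as values. A change of sign between the sides, with at least 0.5 in size on all 4 arrays, was found for 0 probes.

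Probes that kept a size of at least 1 with 1 sign at all 4 times were more frequent. There were 47, 41 of them positive and 6 negative, and 36 after scaling (30 and 6). The positive ones had medians of 2.15 and 2.18 early and 1.71 and 1.67 late, and 31 of the 41 had a negative difference. The probe named Cds2 (14989), after a CDP-diacylglycerol synthase, had 4.45, 4.41, 3.66 and 2.88 and a difference of -1.16 ± 0.28. Pdia4 (2880), a name of an endoplasmic reticulum protein disulfide isomerase, had 3.01, 2.99, 2.13 and 1.71 (difference -1.08 ± 0.22). The probe named Slc6a2 (16071), the noradrenaline transporter, was nearly level, with 2.08, 2.28, 1.94 and 2.07 (difference -0.18). Among the 10 with a positive difference were Pifo (3979), with 1.82, 1.42, 2.39 and 2.01 (difference 0.58), and Bfsp1 (235), with 1.27, 1.45, 1.58 and 1.48 (difference 0.17). The 6 negative probes included C1qa (1631), a name of a complement component of macrophages, with -1.06, -2.71, -1.94 and -2.45, and Cdkn1a (3548), a cell cycle inhibitor, with -1.63, -1.62, -1.67 and -2.66. Another probe named Cdkn1a (4387) had -0.13, -0.54, -0.29 and -0.08. The Rgs16 probe (16587) had -2.66, -2.94, -2.50 and -3.12, and its late values lay on both sides of its early ones. Outside recovery the 6 negative probes had medians of -2.71 on R3h and -2.30 on R4w. Of these, Stmn4 (8133) was nearer to 0, at -0.42 on R3h and -0.06 on R4w, as was Cdkn1a (3548), at -0.66 and -0.58. All arrays share the control pool, and whether it gave the low values was not tested. On R4w 4 of the 6 reached 1 in size. The 41 positive ones had medians of 1.45 and 0.23 there, and 5 reached 1 in size on R4w.

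Of the probes that reached 1 on both early arrays, 94 in number, 83 had a late mean nearer to 0, 41 were still at least 1 on both late arrays and 5 were under 0.5 on both. Their median mean ratio was 1.61 early and 0.99 late. Of the 66 probes that reached 1 on both late arrays, 41 had done so early, 0 had been under 0.5 on both early arrays, and the medians were 1.39 early and 1.43 late. The probes at or below -1 numbered 15 early and 61 late. The 61 had a median of -1.27 early and -1.93 late. The sets were chosen on the values they are described by, and a set chosen for high values on one side lies nearer to 0 on the other by that choice alone.

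The gene lists, made of labels, held 255 kept probes in 20 lists of 5 to 25 probes, and 0 of them were called. Their sides were apart with higher late values for 44 probes (17.3%) and lower for 38 (14.9%), next to 15.6% and 14.8% of all probes. The median difference over the 255 was 0.00 and only 2 reached 1 in size, Mylpf and Efna1. The medians of the lists lay between -0.17 and 0.12, next to 0.02 over all probes, and 9 were positive and 11 negative. After scaling the sign of 2 medians changed, those of the immediate early genes and the heat shock proteins. The shares and medians of the lists are descriptions of labels, with no test of the lists. The counts for single lists that follow stand next to the same 15.6% and 14.8% of all probes.

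Among the contractile lists, the fast fibre names had a median of -0.17 (-0.09 after scaling), with 0 of 11 probes apart and higher and 3 lower. Mylpf was one of them, and Actn3 (probe 11212), the fast-fibre actinin, had 0.48 and 0.35 early and 0.21 and -0.13 late. Tnnc2 (9982) had 0.23, 0.05, 0.11 and -0.75 and Myh4 (2378), the myosin heavy chain of the fastest fibres, 0.13, -0.13, 0.04 and -0.70, so that both stood out on P24h only. The slow fibre names had a median of 0.06, with 2 higher and 2 lower of 12. There the Myh7 probe (8346), the slow myosin heavy chain, had 1.57, 0.76, 0.42 and 0.70. The Casq2 probe (12210), a calsequestrin, had -0.13, -0.31, -0.07 and 0.53. Another probe named Casq2 (14314) overlapped, at 0.01, 0.20, -0.10 and 0.68. Myogenic regulators and embryonic isoforms had 2 higher and 4 lower of 11. Myh3 (2107), an embryonic myosin, had -0.56 and -0.45 early and -0.08 and 0.01 late, Mstn (15755), which limits muscle growth, 0.03 and -0.02 early and -0.31 and -0.54 late, and Igf1 (14568), a growth factor, 0.57 and 0.47 early and 0.26 and -0.03 late.

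In the lists of fuel metabolism, the names of oxidative phosphorylation with those of the citric acid cycle had 2 higher and 2 lower of 12 (median 0.02). The Ndufa5 probe (3765), a subunit of complex I, had 2.79, 2.18, 1.71 and 1.61 (difference -0.82 ± 0.25). The Cox7a1 probe (1802), a subunit of cytochrome c oxidase, had 0.00, -0.32, 0.22 and 0.51. Another probe named Cox7a1 (11546) overlapped, at 0.18, 0.27, 0.02 and 0.55. Fatty acid oxidation and transport had 1 higher and 2 lower of 7, and glycolysis and glycogen 3 higher and 1 lower of 25 probes, of which 17 were spots of the 1 Gapdh accession. Pfkm (5033), a phosphofructokinase, had -0.18 and -0.51 early and 0.05 and 0.18 late. Names known to rise after endurance exercise had 2 higher and 2 lower of 11 (median 0.11). The probe of Angptl4 (1238), an inhibitor of lipoprotein lipase, had 0.37, -0.10, 0.40 and 0.58, and that of Pdk4 (4886), a pyruvate dehydrogenase kinase, 0.43, 0.19, 0.32 and -0.33. Without P24h the Pdk4 difference went from -0.32 to 0.01.

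In the stress, hormone and turnover lists, immediate early genes had 2 higher and 2 lower of 9. The higher ones were Ier5 (15904), at -0.55 and -0.12 early and 0.08 and 0.14 late, and Myc (6265). The Myc probe had -0.50 and -0.38 early and -0.16 and 0.00 late. The lower ones were Klf6 (18330), at 0.17, 0.13, 0.01 and -0.21, and Egr1 (1590), at 0.00, 0.03, 0.00 and -0.25. Klf2 (11245) overlapped, at 1.06, 0.62, 0.64 and 0.34. Heat shock proteins and chaperones had 5 higher and 0 lower of 12, next to 15.6% and 14.8% of all probes. Their median was -0.03 (0.01 after scaling, with 4 higher and 0 lower). Dnajb4 (1074) had 0.20 and 0.39 early and 0.45 and 0.77 late, while another probe named Dnajb4 (10226) overlapped, at -0.07, -0.32, 0.06 and -0.60. Hspb2 (8295) had -0.48 and -0.51 early and -0.42 and 0.00 late. Hsph1 (9759) overlapped with a negative difference, at 0.36, -0.09, -0.20 and -0.06. Of the 12 probes, 0 had an unadjusted p under 0.05 with limma. Metallothionein and oxidative stress names had 2 higher and 1 lower of 5. Glucocorticoid and FOXO responsive names had 3 and 3 of 14, and the Tsc22d3 probe (15945), named for a glucocorticoid-induced leucine zipper, stood at 0.35 and 0.17 early and 0.83 and 0.78 late (difference 0.55 ± 0.19). Atrophy and the ubiquitin proteasome had 2 and 0 of 10, and autophagy and lysosome 3 and 2 of 14. In that list 2 probes named Becn1 had differences of opposite sign: probe 9122 had 0.10, -4.64, -2.39 and -3.93, and probe 3449 0.17, -0.60, 0.16 and 0.32. The circadian clock had 0 higher and 1 lower of 8 (median -0.16), with Dbp (3151) at 0.32 and 0.05 early and -0.03 and -0.24 late.

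Among names of the matrix and of other cell types, the extracellular matrix had 3 higher and 5 lower of 20 (median -0.05). Fn1 (2766), fibronectin, had 0.78 and 0.78 early and 0.20 and 0.24 late, a difference of -0.56 ± 0.18. Col6a3 (174), a chain of collagen VI, had 1.26 and 1.18 early and 0.83 and 0.49 late, and Dcn (1667), decorin, 0.62 and 0.23 early and 0.15 and -0.45 late. The 3 higher ones were named Lox (12583), Mmp2 (1982) and Timp2 (218), while other probes named Mmp2 and Timp2 overlapped. The Lox probe had -0.40 and -0.25 early and -0.17 and 0.33 late. Endothelial markers and angiogenesis had 2 higher and 4 lower of 10, but 0 higher and 3 lower after scaling. Beside Efna1, Cldn5 (17505), a tight junction claudin, was lower late, at 0.43, 0.27, 0.24 and -0.72, and so was Emcn (9773), endomucin, at 0.02, 0.81, -0.04 and -0.20. Angpt2 (16838), an angiopoietin, was higher late, at -0.39, -0.37, -0.37 and 0.17. Another probe named Angpt2 (121) overlapped, at -0.28, -0.07, -0.03 and -0.13. Cdh5 (1969), the cadherin of endothelial junctions, also overlapped, at -0.07, 0.14, 0.07 and 0.70 (difference 0.35). The 2 kept probes of the endothelial marker set had a median difference of 0.15. Macrophage and leukocyte markers had 1 higher and 0 lower of 12. The higher one was Lyz2 (796), a lysozyme of myeloid cells, with -0.45 and -0.93 early and -0.29 and -0.21 late. Cytokines and chemokines had 4 and 1 of 22, and ribosomal proteins 1 and 1 of 8. Cell cycle and proliferation names had 4 higher and 2 lower of 22 (median 0.09). Mcm3 (5976) and Mcm6 (14296), of the replicative helicase, had 0.94 and 0.83 early against 0.22 and 0.00 late, and 0.45 and 0.13 against -0.25 and -0.14. Cdkn1b (1826), a cell cycle inhibitor, had -0.06 and -0.22 early and 0.29 and 0.63 late. The probes named above from the lists had limma adjusted p of 0.970 except Mylpf (0.195) and Efna1 (0.797).

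**Figure D4:**
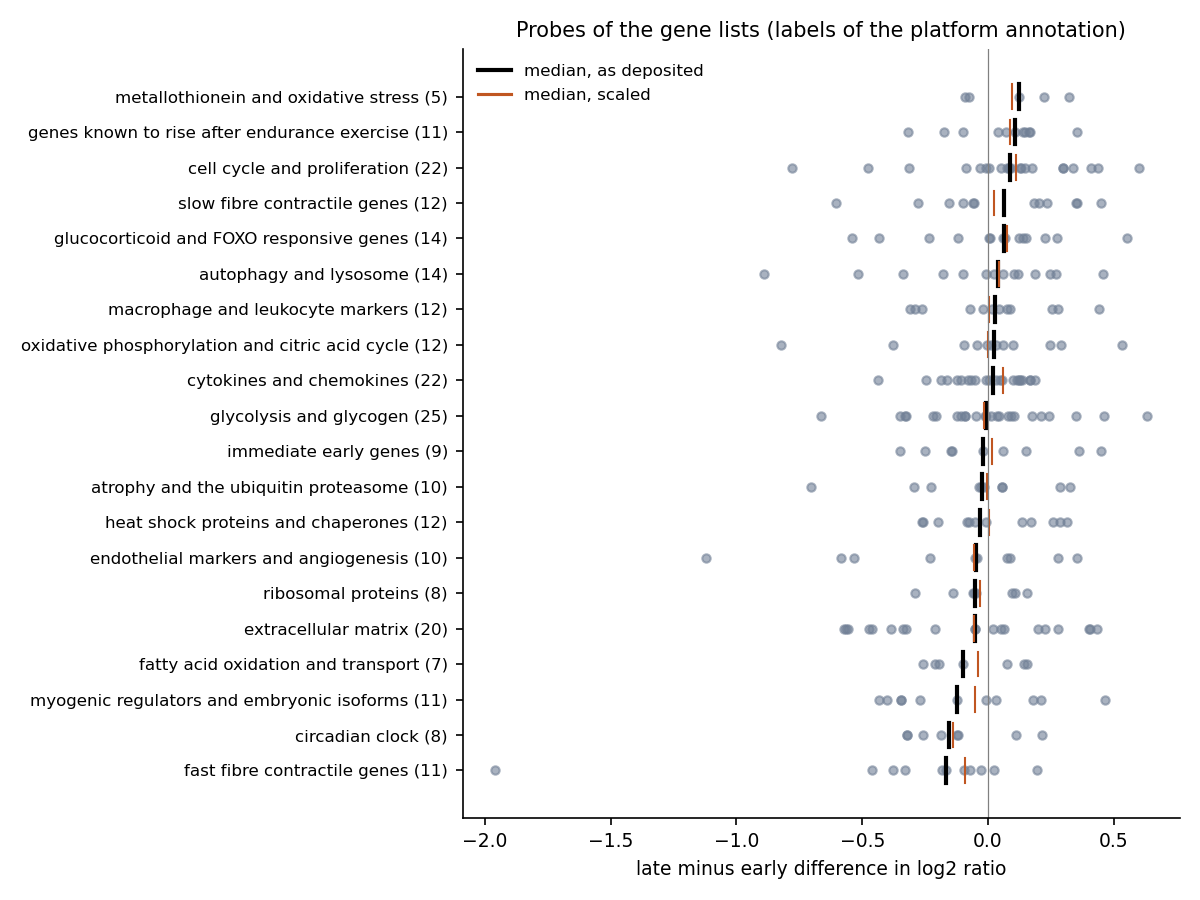
Late minus early difference in log2 ratio for the kept probes of 20 gene lists, 1 point a probe, with the number of probes in brackets, the median of the deposited values in black and that of the scaled values in orange. The medians lie between -0.17 and 0.12, and the single probe below -1.5 is the one named Mylpf.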

How the data were processed

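The authors deposited a series value table with a log2 ratio for each probe on each of 7 arrays. Base 2 was inferred from rounding residues near 0 in the deposited values, which equal multiples of the base-2 logarithm of 1 plus the machine precision. Per the labels, the running pool was in Cy5 and the control pool in Cy3. What the authors did for background, centring and direction of the ratio is not given in the sources used here, and the array medians of the kept probes were -0.01 to 0.04. Each time had 1 array and 1 pool, which limits the precision. Names come from the platform annotation, updated by gene identifier to RefSeq symbols of GRCm38.p6 (13687 probes updated, 44 kept as given, 52 with several symbols and 2490 with none).

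The contrast was fitted probe by probe with limma 3.58.1 in R 4.3.3 (lmFit, eBayes, two-sided, Benjamini-Hochberg over 9102 probes, threshold 0.05) on the 4 arrays. Scaling to a common spread multiplied each array to a common median size of 0.22. Probes named are those with the largest differences per direction among probes with a gap of at least 0.5 between the sides, the leading members of each course class and up to 3 of each list. A selection of these is printed, with others chosen after their values were seen (Pklr, Il17ra, Hpca, Psmb10, Dera, Ube2j2, Slc6a2, Pifo, Bfsp1, Rgs16, Stmn4, Myh4, Klf6, Egr1, Lox, Mmp2, Timp2, Dpep1, Cd151, Meis2, Angpt2, Cdh5 and probe 5513). The same holds for probes 121, 4387, 10226, 11546 and 14314, which share a name with a printed probe. The comparison, lists and rules were chosen with earlier results of these data known. The fit was tested on simulated data. R3h, R12h and R4w entered no test, except where R3h and R12h shared the spread.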

Additional observations from a re-analysis of the deposited data

How the results depend on the processing

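No probe was called under any of the 16 alternatives run, in either direction, and the smallest adjusted p lay between 0.0531 (R3h and R12h sharing the spread) and 0.99999 (without P3h). The probes with an unadjusted p under 0.05 numbered 966 with a slope on the order of the times; log2 hours give the same fit, and so again 966. Leaving out 1 array gave 210 (without P24h) to 1465 (without P12h); the lone array of a side is assumed to vary like the others. Probes with sides apart and a difference of at least 1 numbered 16 to 32 higher late and 24 to 263 lower late when 1 array was left out. A side of 1 array lies apart more easily, so these counts are not comparable with those of all 4 arrays. With quantile normalization 17 were higher, and with zeros kept as values 64 were lower. The early-only class held 2 probes after scaling to a common spread and 3 with a common SD (an alternative chosen after seeing the data). The late-only class held 1 with quantile normalization and 10 with zeros kept. The median difference over all probes, 0.02, was -0.014 to 0.032 when 1 array was left out. The correlation between the 2 pairs of recovery arrays turned to -0.143 with the early arrays exchanged.

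Of 1407 differences recomputed for 88 named probes, 1392 kept their sign and their side of the threshold, 14 changed sign and 1 went to 0. With quantile normalization the Cds2 probe, the highest on each of the 4 arrays, was 0 by construction and the Cdkn1a probe 0.091. With probes of 1 symbol averaged, Becn1 (3449) was -0.22 and Gapdh (2822) 0.0018. With 1 array left out, the differences ran from -0.643 to 0.0086 for Pdk4, -1.45 to 0.042 for Psmb4, -1.37 to 0.043 for Gapdh (2822), -0.552 to 0.057 for Ccl7 and -0.751 to 0.109 for Arntl. Each of these was positive without P24h and negative otherwise. Txnrd1 (9010) ran from -0.078 to 0.327 (negative without P3h and without P24h) and Il6ra from -0.674 to 0.302 (positive without P3h and without P12h). Becn1 (9122) ran from -3.26 to 1.48 and C1qa from -1.13 to 0.512, both positive without P3h only. The cause of these changes was not tested. No paired analysis was possible because each time had 1 array and 1 pool.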
